A study of Oryza sativa Indica Group with 12 samples.

Results

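The pre-meiotic set holds rice transcripts that were seen in anthers before meiosis and near the floor of the measurement in every later stage. Its members were chosen by signal: a probe set belongs to it when its mean over the 3 PMA arrays was over 20 and its mean in each of MA, SCP and TPA was at or under 10. Of 57258 rice probe sets 213 met these limits. Of these, 15 stand in the study's list of pollen mother cell transcripts and were left out, so that the set has 198 members. Because all 4 stage means were used to choose the members, their levels are a description, and so are the counts of members past a test's limits that are given further on.

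Anthers of field-grown wild type rice (Oryza sativa subsp. indica, cultivar IR64) were measured on the Affymetrix rice array, in 3 biological replicates of bulked anthers per stage. The stages are PMA (anthers of 350 to 450 µm, before meiosis), MA (500 to 850 µm, in meiosis), SCP (900 to 950 µm, with single-celled pollen) and TPA (2000 to 2500 µm, with tri-nucleate pollen). All plants were of 1 genotype and no treatment was given. A different experimenter handled the MA arrays, which cannot be told apart from the MA stage itself.

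Before meiosis the rice anther is a small, dividing organ in which the sporogenous cells and the wall layers around them are being set up. Genes of organ polarity, of auxin synthesis and transport and of small RNA pathways are known to act in such young floral organs. Seed storage proteins are known from the ripening grain, where they feed the seedling.

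The values are GC-RMA signals on the linear scale, on which a silent gene sits near a low floor rather than at 0. On each array 40.3 to 41.1% of rice probe sets exceeded 10. The array carries 10 control probe sets for genes of the rice blast fungus, and their means in PMA ran between 3.83 and 7.73. The anther label was checked with OsMADS16, a class B gene of petal and stamen identity, which stood at 12884 ± 1593 in PMA against 17238 ± 457 in MA, 20378 ± 465 in SCP and 8041 ± 1852 in TPA (SD, n = 3 each). The pre-meiotic label was checked with MEL1, an Argonaute of the germ line before meiosis, which had 8295, 7090 and 7762 in the PMA arrays. MEL1 itself is no member, since its mean in MA was 57.1 ± 7.63. The other germ line and meiosis markers did not all share its course. MEL2 had 1362 in PMA and 41.8 in MA, and OsREC8 had 157 and 19.0. PAIR2 had 621 in PMA and 3558 in MA, PAIR3 had 32.3 and 122, and PAIR1 had 12.5 and 14.4.

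The pre-meiotic set was dim. The members had a median PMA mean of 34.5, with a range of 20.3 to 431, and 85 of the 198 lay between 20 and 30. Only 17 exceeded 100 and none reached 1000. In the later stages the members had medians of 6.47 in MA, 6.13 in SCP and 6.08 in TPA. In whole anthers, fewer cells of a type and less RNA per cell cannot be told apart. The ratio of 3′ to 5′ signal of control genes, a sign of RNA quality, also moved with stage. For actin it was 1.37 to 1.58 on the PMA arrays, 2.38 to 2.97 on the MA arrays, 4.61 to 5.03 on the SCP arrays and 0.801 to 0.831 on the TPA arrays. For GAPDH it was 2.57 to 2.58 on the PMA arrays, 4.74 to 5.42 on the MA arrays, 4.74 to 5.47 on the SCP arrays and 3.57 to 3.83 on the TPA arrays. For cyclophilin the PMA arrays, at 3.13 to 3.73, overlapped with those of SCP and TPA. The part of RNA quality in the members' levels was not tested.

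**Figure D1:**
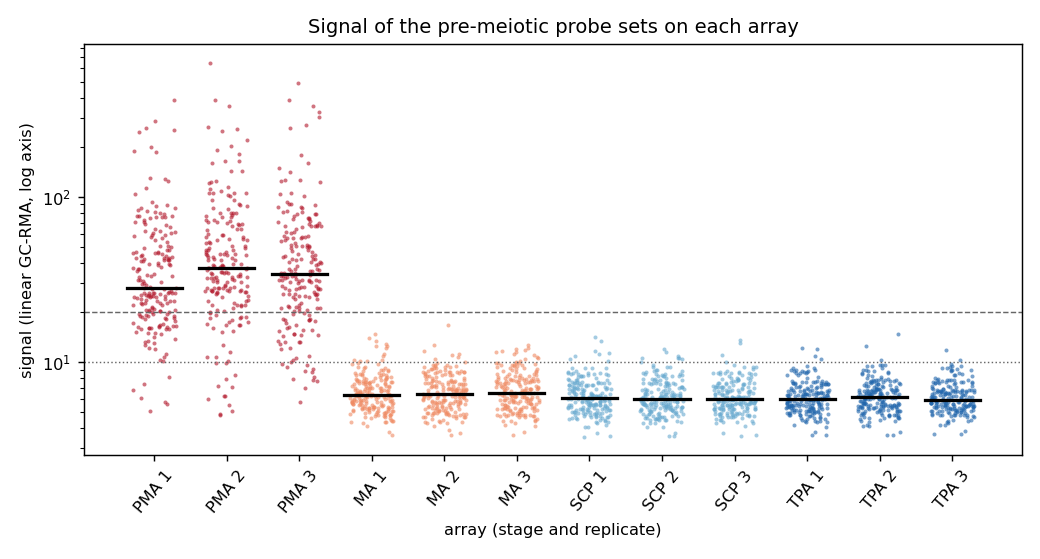
Each point is 1 of the 198 members on 1 array, with the array (stage and replicate) on the x axis and the linear GC-RMA signal on a logarithmic y axis. Black bars are medians, the dashed line is a signal of 20 and the dotted line a signal of 10. The medians were 28.1, 37.1 and 34.0 on the PMA arrays and between 5.92 and 6.51 on the other 9 arrays.

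The limits cut through a continuous range of levels. The dimmest member had a PMA mean of 20.3 and the brightest probe set left out for its level in PMA had 19.99, with at most 9.81 in a later stage. The member closest to the upper limit, of gene LOC4339821, had 79.3 in PMA and 9.98 in MA. The nearest probe set beyond that limit had 27.9 in PMA and 10.003 in MA. With a limit of 10 in place of 20 in PMA the set would hold 699 probe sets, and with a limit of 40 it would hold 87.

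The sets chosen in the same way for the other stages were larger or brighter. MA alone gave 191 probe sets with a median level of 41.7 and a highest level of 10390, SCP alone gave 611 with a median of 57.3, and TPA alone gave 1358 with a median of 204. Levels over 100 were reached by 8.59% of the pre-meiotic set, against 24.1% of the MA set, 33.7% of the SCP set and 59.6% of the TPA set. The brightest TPA transcript of that kind had 38632, whereas the pre-meiotic set ended at 431. These sets were picked by the same values that are compared here, so that no test was made.

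**Figure D2:**
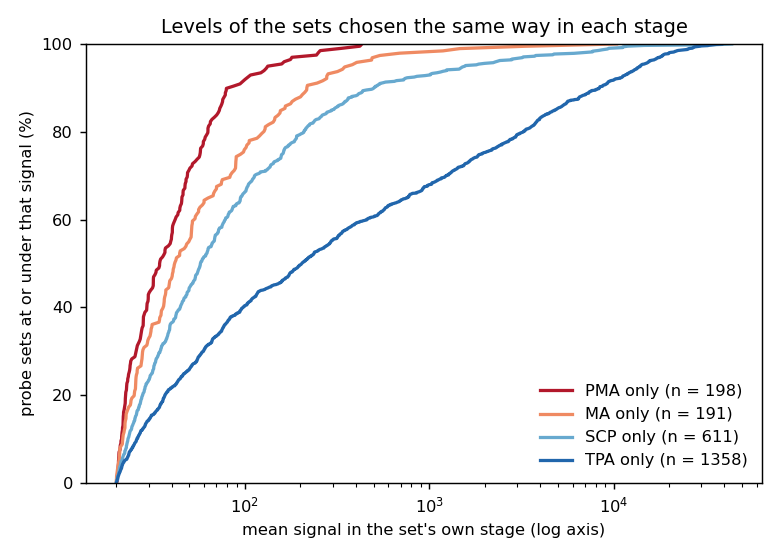
Cumulative share of probe sets (y axis, in percent) by their mean signal in the stage that defines the set (logarithmic x axis), for the sets chosen with the same limits in PMA, MA, SCP and TPA. The PMA curve is the leftmost and ends at 431, and the TPA curve is the rightmost.

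The PMA replicates spread widely over the pre-meiotic set. The coefficient of variation over the 3 PMA arrays had a median of 40.5% in the members, and ran up to 136% (lowest 2.49%). Among the 141 members with a PMA mean up to 50 it was 45.0%, against 25.2% in the 2814 other probe sets over 20 and up to 50 in PMA. All 3 PMA arrays were over 20 in 102 members, 2 were in 62 members and only 1 was in 34 members. In 116 members the highest PMA array was at least 2-fold over the lowest, and in 27 at least 5-fold. A PMA array at or under 10 occurred in 29 members. All 3 arrays of the own stage were over 20 in 51.5% of the pre-meiotic set, against 74.3% of the MA set, 62.7% of the SCP set and 75.8% of the TPA set chosen in the same way. A wide spread is not particular to the pre-meiotic set, since the median coefficient of variation in the own stage was 42.9% in the SCP set, with 15.6% in the MA set and 29.5% in the TPA set.

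The PMA arrays did not share the members evenly. PMA replicate 2 was the highest array in 97 members, or 49.0%, PMA replicate 3 in 78, or 39.4%, and PMA replicate 1 in 23, or 11.6%. Over the 20104 other probe sets above 20 in PMA these shares were 43.4%, 29.4% and 27.3%. In 27 members PMA replicate 2 was at least 2-fold over both other replicates, in 20 members PMA replicate 3 was, and in 3 members PMA replicate 1 was. Leaving out 1 PMA array at a time, 130 members met the limits in all of the 3 cases and 68 failed in at least 1.

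**Figure D3:**
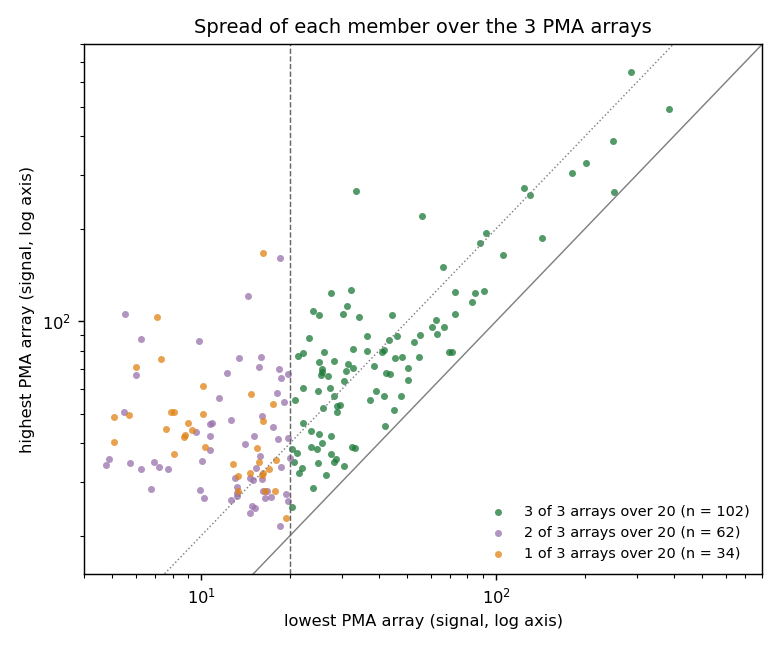
Each point is 1 of the 198 members, with its lowest PMA array on the x axis and its highest on the y axis (signals, both axes logarithmic). The solid line marks equal values, the dotted line a 2-fold difference and the dashed line a signal of 20, and colours give how many of the 3 arrays exceeded 20 (102, 62 and 34 members with 3, 2 and 1).

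The arrays of PMA and of the later stages overlapped in 23 members. In the other 175 every PMA array was above all 9 arrays of MA, SCP and TPA, which held for 9.40% of all rice probe sets, and 78 members had each single array within the limits. Over all rice probe sets the moderated test of limma called 3.03% higher in PMA than in MA, 6.55% higher than in SCP and 16.0% higher than in TPA, at an adjusted p of 0.005 or less and at least 2-fold. Of the members 134, 145 and 159 stood among these. In all 3 comparisons 128 members were called, against 1.85% of all probe sets, and 37 members were called in none. The rule had already asked for these differences, so that nothing is read from these counts.

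The sources used here name a minority of the members. A table of the array's genes paired 70 of the 198 with exactly 1 gene (67 genes), or 35.4%, near the 39.2% of all rice probe sets, and the study's supplements give a locus for 11. Neither source named 123 members. Predicted gene models, which carry the prefix OsAffx, made up 100 members, or 50.5%, against 44.5% of all rice probe sets and 17.2% of the 12344 with a PMA mean over 20 and up to 431. The share was 56.0% in the MA set, 64.0% in the SCP set and 33.6% in the TPA set. Probe sets that can bind several transcripts, with the suffix x, made up 36 members, or 18.2%, against 12.5% of all. These sources hold few descriptions, and 3 members have one, 2 of them as storage proteins. No 2 of the 67 genes lay within 10 genes of each other in the order of the reference genes.

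The brightest members are mostly such unnamed models. OsAffx.24903.1.S1_at (LOC_Os02g57090) had 287, 650 and 356 in the PMA arrays, and 12.2, 6.43 and 8.69 in the MA arrays, while it stood between 5.45 and 7.25 in the SCP and TPA arrays. OsAffx.8732.1.S1_at had 385, 385 and 491 in the PMA arrays and between 4.80 and 4.99 in the 9 others. OsAffx.16101.1.S1_at was among the steadiest, with 253, 251 and 263 in the PMA arrays, against a mean of 9.59 ± 1.87 in MA. Of the 12 brightest members, SSA5 and GRXC1 have a name, LOC9272625 a gene number, OsAffx.24903.1.S1_at a locus, and the rest none of these. LOC9272625 had 125, 144 and 271 in the PMA arrays and 5.64 ± 0.121 in MA.

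Seed storage and seed allergen genes supplied the brightest named member. SSA5 (LOC_Os11g33000), a 2S albumin that stores nitrogen and sulphur in seeds, had 263, 182 and 305 in the PMA arrays. Its signal in MA was 4.67, 4.66 and 4.68, in SCP 4.62, 4.61 and 4.64, and in TPA 4.73, 4.76 and 4.78. The PMA arrays, with a mean of 249.7 ± 62.6, lay far above the others, which were at the floor. A second probe set of the same array cluster, which no table names, had 66.2, 26.9 and 57.8 in the PMA arrays and at most 4.48 elsewhere.

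PROLM25 (LOC_Os07g10570), a prolamin of the endosperm protein bodies, was a member through both of its probe sets. The first had 64.2, 63.0 and 90.6 in the PMA arrays, against means of 8.70 in MA, 8.55 in SCP and 9.36 in TPA. The second had 25.6, 43.0 and 69.8 in the PMA arrays and means of 4.36, 4.31 and 4.39 in MA, SCP and TPA. RA5, a seed allergen of the amylase and trypsin inhibitor family, had 74.1, 66.3 and 150 in the PMA arrays, and 5.26 ± 0.0519 in MA, 5.10 ± 0.204 in SCP and 5.34 ± 0.0907 in TPA. All of these named probe sets were highest in PMA replicate 3.

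Most other seed storage and seed allergen probe sets looked at were near the floor throughout. No further prolamin or 2S albumin was among them, so that SSA5 and PROLM25 are not set beside genes of their own kind. Among 13 other probe sets of glutelins and seed allergens (GLUA1, GLUA2, GLUA3, GluB4, GluB5, GLUD1, RAG1 and RAG2), 2 exceeded 10 in PMA and 4 did so later. None was called higher in PMA than in MA, a count near the 3.03% of all rice probe sets. GLUA2, a glutelin subunit, stood at 42.8 in PMA against 47.2 in MA, 91.8 in SCP and 4443 in TPA by 1 probe set, and at 14.0, 22.1, 8.86 and 8.15 by the other. This group and the families below were drawn up after the members were known, and they are described for context.

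Auxin genes formed a further pair. OsPID is a protein kinase that in Arabidopsis directs auxin efflux carriers to 1 side of the cell. It had 89.4, 220 and 56.1 in the PMA arrays, 10.3, 7.90 and 7.80 in the MA arrays, 7.51, 7.49 and 5.22 in the SCP arrays, and 5.90, 7.93 and 7.78 in the TPA arrays. OsYUCCA1, a flavin monooxygenase of the last step of auxin synthesis, had 26.0, 79.5 and 30.6 in the PMA arrays. Its MA arrays read 11.2, 6.81 and 7.13, and its mean was 6.19 ± 1.17 in SCP and 5.30 ± 0.0400 in TPA. PMA replicate 2 was the highest for both, by more than 2-fold over each other PMA replicate. MA replicate 1 was the highest MA array for both.

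Among 10 other probe sets for auxin synthesis and transport genes, a further one of OsYUCCA1 itself included, 4 exceeded 10 in PMA and 5 later. PIN3A, an auxin efflux carrier, was read by 2 probe sets with 349 and 161 in PMA against 178 and 79.4 in MA, 211 and 124 in SCP, and 194 and 90.9 in TPA. TAR2, an aminotransferase upstream of the YUCCA step, had 93.3 in PMA against 30.8 in MA, 90.9 in SCP and 26.3 in TPA. None of the 10 was called higher in PMA than in MA, again near the 3.03% of all rice probe sets, and PIN5C was called lower, as were 3.31% of all rice probe sets.

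Transcription factors of 3 families belong to the set. OsYABBY5, of the YABBY family that patterns lateral organs, had 45.4, 75.9 and 56.9 in the PMA arrays. It had 6.91, 9.28 and 9.87 in the MA arrays, and means of 6.95 ± 0.494 in SCP and 5.61 ± 0.0333 in TPA. The 3 PMA arrays were well above all others. HSFA2A, a heat stress factor, rested on fewer arrays, with 5.54, 106 and 27.2 in the PMA arrays and between 5.35 and 5.83 in the 9 others. PMA replicate 1 thus lay among the later stages, and without PMA replicate 2 the gene left the set. Roc7, a homeodomain-leucine zipper factor of the class that acts in the epidermis, was the dimmest named member. It had 6.76, 27.0 and 28.4 in the PMA arrays and 10.2, 7.63 and 6.52 in the MA arrays, so that PMA and MA overlapped, and it left the set without PMA replicate 2 or without PMA replicate 3.

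Relatives of these factors were mostly expressed beyond PMA. Of 6 other YABBY probe sets 4 exceeded 10 in PMA and the same number did so later. OsYABBY4 came closest to the pattern, with 183 in PMA against 43.4 in MA, 11.5 in SCP and 8.23 in TPA. This probe set was called higher in PMA than in each later stage, by a log2 difference of 2.07 against MA (limma, adjusted p = 3.56e-04). Of 28 other heat stress factor probe sets, further ones of HSFA2A itself included, 24 exceeded 10 in PMA and 23 in a later stage. HSFB4B was just short of the limits by 1 of its probe sets, with 10.2, 31.8 and 16.3 in the PMA arrays and between 6.88 and 8.28 in the others, while its other probe set had 116 in PMA against 36.8 in MA. All 8 other probe sets of the Roc family exceeded 10 in PMA. Roc8 fell further short of the PMA limit, with 8.51, 13.9 and 26.8 in the PMA arrays and between 5.89 and 7.76 in the others. It was not called in any comparison, and neither were the members Roc7 and HSFA2A. Roc3 had 427 in PMA against 84.2 in MA, 12.5 in SCP and 7.55 in TPA, a log2 difference of 2.31 between PMA and MA (limma, adjusted p = 8.26e-05).

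OsRDR4, an RNA-dependent RNA polymerase of the kind that makes double-stranded RNA for small RNA pathways, had 26.3, 59.3 and 24.8 in the PMA arrays. Its arrays in MA read 4.65, 4.64 and 4.66, and the means were 4.59 ± 0.0322 in SCP and 4.71 ± 0.0168 in TPA. A second probe set of OsRDR4 had 38.9 ± 7.56 in PMA and 10.7 ± 0.553 in MA, and so lay just outside the limits. Of 19 probe sets for Argonaute, Dicer-like and RNA-dependent RNA polymerase genes outside the set, that one included, 8 were called higher in PMA than in MA, where the share over all rice probe sets was 3.03%, and 3 were called lower, where that share was 3.31%. All 19 exceeded 10 in a later stage. OsAGO1d, an Argonaute that binds microRNAs, had 14417 in PMA against 2317 in MA, 3519 in SCP and 266 in TPA.

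NH5, a homologue of the salicylic acid receptor NPR1 of Arabidopsis, had 15.8, 36.3 and 32.0 in the PMA arrays. It had 8.09, 8.22 and 10.97 in the MA arrays, and means of 6.95 ± 1.25 in SCP and 7.68 ± 0.241 in TPA. Of 8 other probe sets of NPR1 homologues, a further one of NH5 itself included, 5 exceeded 10 in PMA and 6 did so later. None was called higher in PMA than in MA (3.03% of all rice probe sets) and none lower (3.31% of all). NH4 was called higher in PMA than in SCP and in TPA, with log2 differences of 1.55 and 2.22. NH3 was called higher than in TPA by 1 probe set, and NH1 was called lower than in TPA. The relatives NH1 and NH2 had 239 and 2235 in PMA, and their lowest stage means were 239 and 1197.

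A pair of enzymes of redox and nitrogen metabolism completes the named members. GRXC1, a glutaredoxin that reduces disulphides with glutathione, had 129, 164 and 106 in the PMA arrays. Its levels were 8.51, 7.33 and 7.36 in the MA arrays, 8.47, 10.5 and 8.47 in the SCP arrays and 7.44, 7.48 and 7.52 in the TPA arrays. Of 21 other glutaredoxin probe sets 19 exceeded 10 in PMA and 20 did so later, and none was called higher in PMA than in MA (3.03% of all rice probe sets) while 3 were called lower (3.31% of all). NIA1 (LOC_Os08g36480), a nitrate reductase, had 57.3, 58.5 and 18.1 in the PMA arrays and 7.17, 8.43 and 13.0 in the SCP arrays. Its means were 7.54 ± 0.327 in MA and 7.82 ± 0.737 in TPA.

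**Figure D4:**
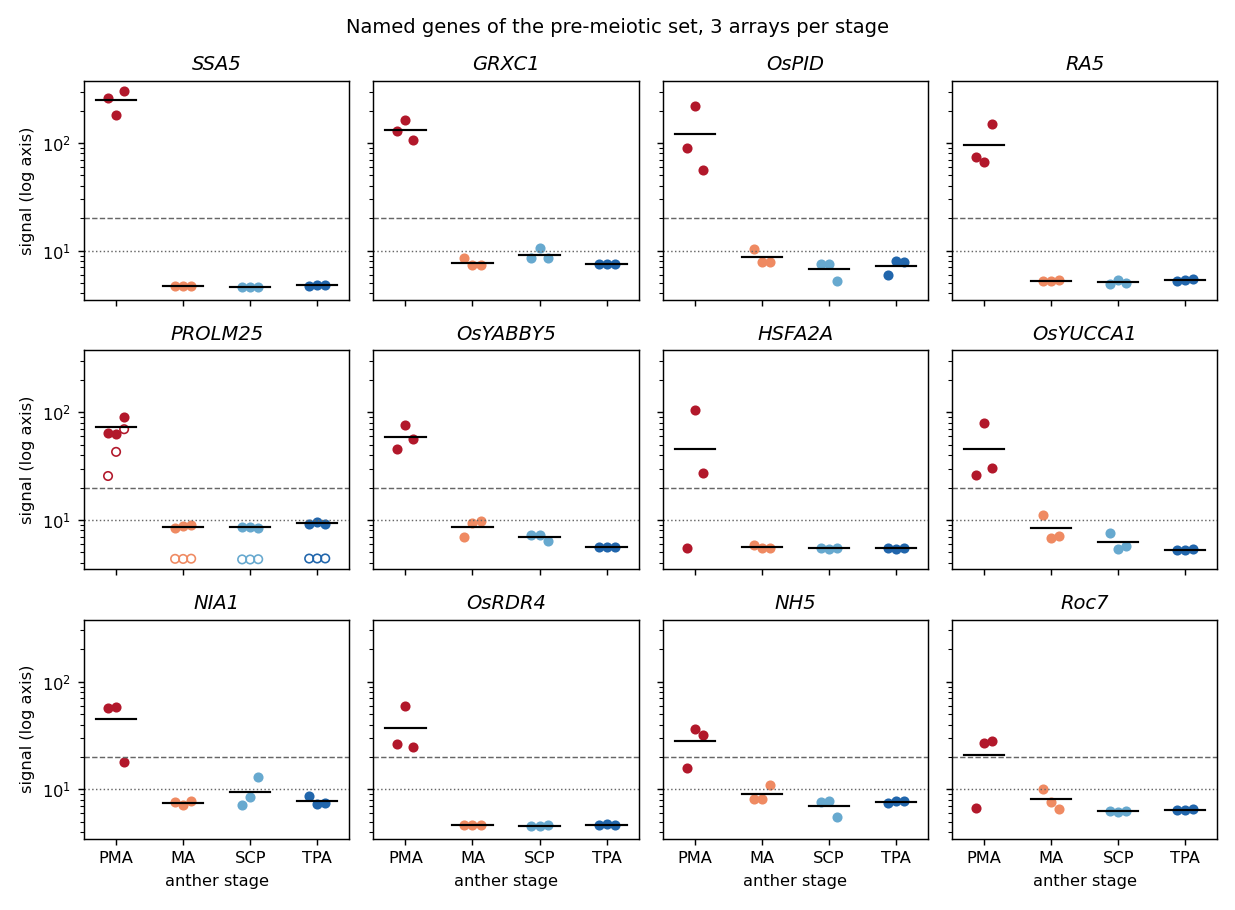
Signals (logarithmic y axis) of the 12 named genes of the set in the 3 arrays of each stage (x axis), with bars at the means, a dashed line at 20 and a dotted line at 10. PROLM25 has a second probe set, drawn as open circles. HSFA2A and Roc7 each have a PMA array among the values of the later stages.

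Of the 13 probe sets of these 12 named genes, 8 were highest in PMA replicate 2 and 5 in PMA replicate 3. The storage proteins and RA5 were of the second kind, along with Roc7, and the others of the first. Of 22 marker genes of anther, germ line, meristem, other floral organs and leaf with a PMA mean over 10, 6 were highest in PMA replicate 1, 8 in PMA replicate 2 and 8 in PMA replicate 3. In 5 of the 22 the highest PMA array was at least 2-fold over the lowest. OSH1, a homeobox gene of meristems, had 84.3, 127.5 and 53.7 in the PMA arrays. OsREC8, a meiotic cohesin subunit, had 156, 91.2 and 223, and the tapetum regulators UDT1 and TDR had 93.8, 74.1 and 179, and 98.9, 126.7 and 227. Of the 2 leaf genes, CAB2R, a chlorophyll-binding protein, had 81.0, 77.1 and 870, while OsrbcS, the small subunit of Rubisco, had 189, 231 and 202. OsMADS13, a gene of ovules, was at the floor in PMA with a mean of 7.20, but had 51.9 ± 9.03 in MA. Of the 5 meristem and other floral organ genes with a probe set measured over 10 in PMA (OSH1, FON1, DL, OsMADS1 and OsMADS6), all exceeded 10 in MA as well. The meristem genes fell steeply, FON1 from 2089 in PMA to 68.8 in MA and OSH1 from 88.5 to 14.3. OsMADS6 had 194 in PMA and 94.0 in MA, OsMADS1 had 495 and 428, and DL had 38.1 and 48.1. Their part in the levels of the members was not tested.

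Other probe sets of the members' genes were read on the same arrays. They are not independent of the rule, since a probe set that followed the pattern became a member and is not among them. The counts in this paragraph are therefore partly fixed by the rule and are a description. Of the 67 genes 38 have 1 probe set on the array and 2 have only members. For the other 27 genes the array holds 34 further probe sets. In 20 of the 27 genes a further probe set exceeded 10 in MA, SCP or TPA, and in 14 genes it exceeded 100. In the other 7 genes every further probe set stayed at or under 10 in all 4 stages. A single further probe set, of LOC9267997, exceeded 10 in PMA alone, with a mean of 16.9 ± 18.0. The other further probe set of that gene had 288 ± 402 in PMA against 37.4 ± 1.73 in MA. In both the SD in PMA was larger than the mean, and neither was called in any comparison.

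LOC4349371 had 82.8, 116 and 102 in the PMA arrays by its member and 6.38 ± 0.140 in MA. Its other probe sets read 265 ± 62.7 and 2392 ± 17.3 in PMA against 59.5 ± 9.41 and 1901 ± 59.9 in MA, 60.1 ± 9.05 and 2309 ± 22.6 in SCP, and 16.6 ± 5.07 and 576 ± 99.1 in TPA. LOC4336621 had a member at 28.6 in PMA and a further probe set at 1625 in PMA against 1707 in MA, 1150 in SCP and 396 in TPA. For LOC4330479 the member had 34.1 in PMA, and the further probe set had 930 in PMA against 1275 in MA, 842 in SCP and 844 in TPA. The probe sets of these genes thus gave different patterns, and whether they bind different transcripts of the gene was not tested.

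In other genes the further probe set followed the member in part. LOC4352736 had 94.0 in PMA by its member, while its further probe set was lower at each later stage, with 304 in PMA against 101 in MA, 55.8 in SCP and 5.39 in TPA. LOC4326895 had the same order of stages, with 182 in PMA against 49.8 in MA, 28.4 in SCP and 7.25 in TPA by 1 further probe set, and at most 6.41 by the other. Of the 23 further probe sets over 10 in some stage, 19 were highest in PMA, though not all by much. The brighter one of LOC4349371 had 2392 in PMA and 2309 in SCP. How many of all rice probe sets are highest in PMA was not counted, so that nothing is read from this number. For HSFA2A, OsYUCCA1, NIA1 and NH5 the further probe sets stayed near the floor, with PMA means of 5.69 and 6.88, 7.26, 5.23 and 3.79. Those of OsYUCCA1, NIA1 and NH5 did not show the members' signal in PMA. The HSFA2A probe set with a mean of 5.69 read 4.24, 8.56 and 4.28 in the PMA arrays. It was thus highest in PMA replicate 2, as the member was, though under 10. Of the 13 named probe sets 7 carry the suffix x.

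**Figure D5:**
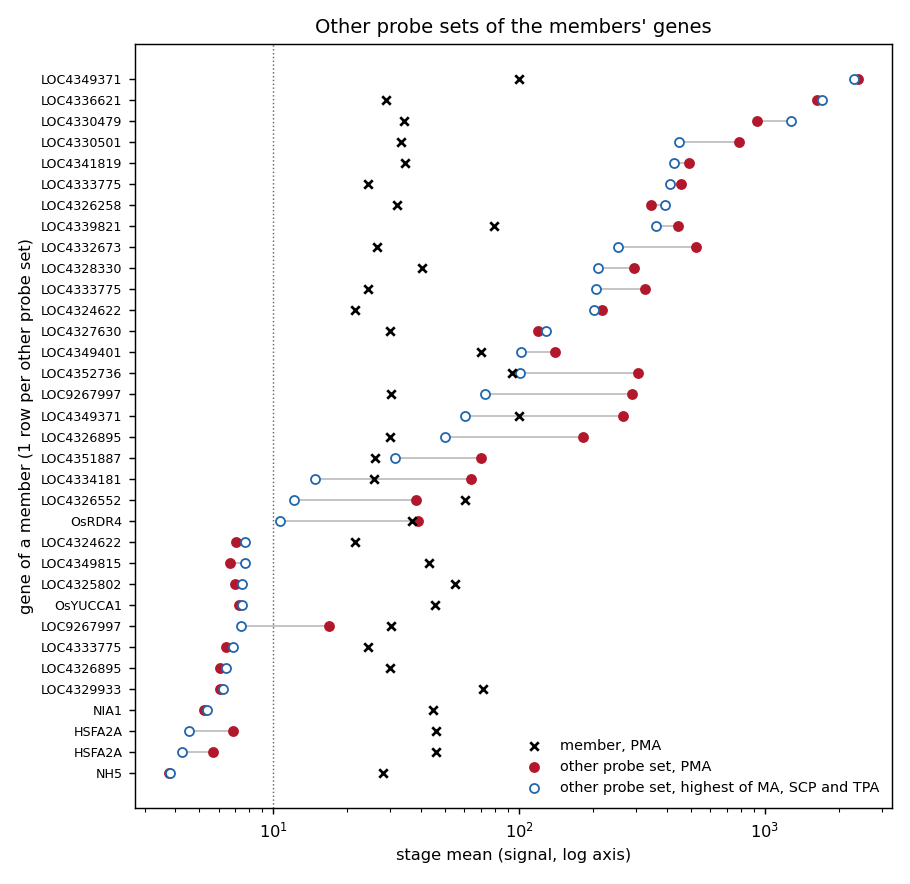
Stage means (logarithmic x axis) for the 34 further probe sets of 27 genes with a member, 1 row each and named by gene. Filled circles are the further probe set in PMA, open circles its highest mean of MA, SCP and TPA, and crosses the brightest member of the gene in PMA, with a dotted line at 10. The open circles lie right of the line in 20 genes, up to 2309 for LOC4349371.

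The 15 probe sets that met the limits but stand in the pollen mother cell list had PMA means of 20.1 to 189. The brightest was a PWWP domain protein gene (LOC_Os05g03110), with a domain known from chromatin proteins, at 189 ± 12.4 in PMA and 4.61, 4.55 and 4.68 in MA, SCP and TPA. An expressed protein (LOC_Os07g07530) had 157 ± 31.6, and an ankyrin gene (LOC_Os02g29190) 70.5 ± 21.2. OsFBD10 and OsFBD2, of the F-box family that picks proteins for degradation, had 49.4 ± 20.9 and 49.3 ± 27.6. With these kept the set would hold 213 probe sets.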

How the data were processed

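The authors labelled anther RNA, scanned the arrays and deposited linear GC-RMA intensity values, which they had normalized together with arrays of other tissues (not analysed here). GC-RMA corrects background by probe GC content, quantile-normalizes the arrays and gives 1 value per probe set. The 123 controls among 57381 probe sets were set aside. Log2 values of the 12 arrays entered 1 limma fit (version 3.58.1, R 4.3.3, lmFit then eBayes, 8 residual degrees of freedom), with Benjamini-Hochberg adjustment over all 57258 rice probe sets. The fit was tested on simulated data. It recovered in full the larger of the sizes tried but only in part the smaller, 4-fold, which is near the members' own median difference. The pass mark first set failed at that size and was then required of the larger size only. The simulation changed only probe sets under a limit of spread and gave each the same spread in every stage. Many members spread more widely in PMA than near the floor, so the recovery found does not carry over to them. Levels are means ± SD of 3 arrays, and ratios are of linear means. The number of arrays limits the precision.

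Probe sets were named through a platform table that pairs 22436 of them with 1 gene, through RefSeq symbols and through loci in the study's supplements, parts of which were shortened. The members and all gene lists were chosen with earlier results of these data known. Named are the 12 members brightest in PMA, members paired with 1 gene of known symbol or function, those next to the limits, and those left out as pollen mother cell transcripts. Of these not every one is described. LOC4349371, LOC4336621, LOC4330479, LOC4352736 and LOC4326895 were picked after their values were seen. Markers were fixed as stamen, germ line, anther wall, meristem, floral organ and leaf genes, and a gene is read by its brightest probe set. A planned search for promoter motifs was not run. Alternatives were other limits, medians, quantile normalization, a shift of the arrays to a common median, other fits and tests, and each array left out.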

Additional observations from a re-analysis of the deposited data

Results flagged for a closer look

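A control probe set for the 3′ end of a fungal elongation factor, outside the rice probe sets, stood out by its level in TPA, with a mean of 4.53 over the PMA arrays, 4.52 over the MA arrays, 5.60 over the SCP arrays and 137 over the TPA arrays. The other fungal control probe sets stayed at or under 15.9 in TPA. No member of the pre-meiotic set is read against this control.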

How the results depend on the processing

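The size of the set follows its limits. The 198 members became 699 with a PMA limit of 10, 87 with a limit of 40, 106 with later stages at or under 7.5, 78 with every single array within the limits and 67 with 1 probe set per paired gene. With each array moved to the same median, taken over probe sets above 10 in some stage, 128 probe sets met the limits, of which 111 were members. That shift moved PMA by a mean of -0.23, MA by -0.15, SCP by -0.11 and TPA by 0.50 on the log2 scale, and among the named genes GRXC1, OsPID, NIA1, NH5, Roc7 and 1 probe set of PROLM25 left the set. Quantile normalization gave 187, of which 179 were members. Leaving out 1 array gave sets of 184 to 212. The lowest came without PMA replicate 2 and shared 162 probe sets with the members.

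Of the members, 134, 145 and 159 were called higher in PMA than in MA, SCP and TPA. A fit of only the compared stages called 69, 82 and 98, and an equal-variance t-test across all probe sets called 38, 45 and 66. With the replicate number as a block 113, 128 and 146 were called. The labels do not say that equal numbers share a batch, and deviations of equally numbered arrays correlated at -0.064 to 0.10 over 18 pairs, with 5 of 12 arrays closest to their own number. Leaving out 1 array gave 108 to 148 against MA, 123 to 150 against SCP and 140 to 164 against TPA. The members without overlap were 175 to 185 and those with every array within the limits 78 to 98 with 1 array left out. The other alternatives kept each count within 1.5 times. Signals under 10 cannot be told from background, so that absence in a later stage means only a level near the floor.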
